A study of Mus musculus with 12 samples.

Results

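The genes that encode the histones, the proteins around which DNA is wound, were followed in bulk RNA-seq of mouse pluripotent cells. Members were chosen by gene symbol alone: the linker histone genes H1f, the core histone genes H2ac, H2bc, H3c and H4c, and the variant genes H2az1, H2az2, H2ax, H3f3a, H3f3b, Macroh2a1 and Macroh2a2. The rule found 79 of the 57180 genes in the table, of which 67 were replication-dependent (H1f1 to H1f6 and the numbered H2ac, H2bc, H3c and H4c genes) and 12 were variants. At least 10 counts in total over the libraries, the minimum for a test, were reached by 76 genes (66 replication-dependent and 10 variant). H2ac23, H1f7 and H1f9 stayed under that minimum. All cells were E14 mouse ESCs of 1 picked clone with a doxycycline-inducible CRISPR interference system, in which a guide RNA brings a repressor to a promoter. The Neg line carried scramble guides, and the 3xKD line carried guides against Pcx, Me1 and Me2, which encode pyruvate carboxylase and 2 malic enzymes of the pyruvate-malate cycle. The study describes arms with doxycycline or DMSO for its RNA-seq, and a figure legend gives doxycycline for both lines in both states. The sample titles name neither. Both lines were kept under puromycin, blasticidin and hygromycin and were profiled as naive ESCs in N2B27 with the 2i inhibitors and LIF (day 0) and as EpiLCs, formative cells made in FGF2, activin A and XAV939 (day 2), all at low oxygen. The 4 groups, Neg ESCs, 3xKD ESCs, Neg EpiLCs and 3xKD EpiLCs, held 3 libraries each.

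A nucleosome holds a pair each of H2A, H2B, H3 and H4, and H1 binds the DNA where it enters and leaves. Cells make most of these proteins in S phase from clustered, intronless genes whose mRNAs have no poly(A) tail: they end in a short stem-loop that is bound by the stem-loop binding protein, Slbp, and they are destroyed when DNA synthesis stops. Variant genes lie outside the clusters, usually have introns and polyadenylated mRNAs, and are read throughout the cell cycle, so their proteins can replace the canonical ones at promoters, at damaged DNA or on silent chromatin.

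The stem-loop separates both kinds of gene and is shown for that reason. It is written here with the paired bases of its stem in capitals, as read from the GRCm39 genome within 200 bases after the stop codon.
Most common form, 38 members: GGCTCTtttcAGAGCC
Form of 9 members, H1f6, H2bc1, H2bc3 and H2bc12 among them: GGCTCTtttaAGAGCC
Form of 8 H4 genes: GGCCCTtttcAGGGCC
Form of H2ax: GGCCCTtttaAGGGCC
A stem-loop of this pattern (16 bases with 6 base pairs and a loop of 4) was found in 62 of the 67 replication-dependent genes (92.5%), in 1 of the 12 variant genes, and in 69 of all 21770 protein-coding genes (0.317%). The variant with one was H2ax, the histone that is phosphorylated at DNA breaks. The replication-dependent genes with no match in the window were H2ac22, H2bc21, H2bc22, H2bc23 and H2bc24.

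Promoters are shown for 4 genes on which the results below turn: 3 H2B genes that were higher in 3xKD ESCs, and H4c8, an H4 gene that was not called. Each stretch is the 150 bases before the annotated start of the main transcript in GRCm39, on the strand of the gene. Capitals mark the octamer ATTTGCAT, the TATA box TATAAA and the CCAAT box CCAAT, each searched on both strands.
H2bc3 (chr13:23930567-23930716, + strand): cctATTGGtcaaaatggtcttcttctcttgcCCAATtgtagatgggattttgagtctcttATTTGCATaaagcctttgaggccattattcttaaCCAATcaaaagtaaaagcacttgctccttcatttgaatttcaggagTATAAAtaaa
H2bc8 (chr13:23755420-23755569, + strand): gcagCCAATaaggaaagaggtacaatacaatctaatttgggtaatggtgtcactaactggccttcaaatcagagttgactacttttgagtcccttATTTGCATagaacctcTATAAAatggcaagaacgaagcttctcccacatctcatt
H2bc27 (chr11:58839596-58839745, + strand): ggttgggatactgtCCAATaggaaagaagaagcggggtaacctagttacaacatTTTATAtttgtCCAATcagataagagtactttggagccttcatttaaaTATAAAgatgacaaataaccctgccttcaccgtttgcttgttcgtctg
H4c8 (chr13:23715070-23715219, + strand): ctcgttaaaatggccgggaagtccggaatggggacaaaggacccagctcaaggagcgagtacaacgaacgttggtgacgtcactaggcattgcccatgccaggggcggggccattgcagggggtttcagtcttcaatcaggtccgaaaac
In a window from 250 bases before to 50 bases after the start, the octamer stood in 7 of 18 H2A genes, 7 of 18 H2B genes and none of the H1, H3 or H4 genes, against 1.63% of all protein-coding genes. The TATA box stood in 53.7% of replication-dependent genes (13.2% of all genes), and the CCAAT box in 82.1% (39.9% of all genes), though in only 4 of 13 H4 genes. These are matches of letters and show neither binding nor use.

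Replication-dependent genes lay on chromosome 13 (54 genes), chromosome 3 (10), chromosome 11 (2) and chromosome 6 (1). In 11 cases an H2A gene and an H2B gene were divergent, with starts between 175 and 305 bases apart. Many copies encode the same protein: the 13 H4 genes encode 1 protein, the 12 H3 genes encode 2, the 18 H2A genes 9 and the 18 H2B genes 12. Reads are therefore hard to place. Coding sequences were identical to that of another member in 10 replication-dependent genes and within 10 bases of one in 46. Only 3 of the replication-dependent genes, H1f1, H1f6 and H2bc21, had a whole estimated count (within 0.001) in all 12 libraries, as where no reads are divided between genes. In all, 19 members overlapped an annotated gene on the same strand and 46 overlapped one on the other strand, and the strand setting of the counting is not given in the sources used here. Values of single genes are for this reason less certain than class sums.

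Library totals ran from 11221023 to 19652197 estimated counts. Pcx, Me1 and Me2 were lower in all 3xKD libraries than in all Neg libraries of the same state, by 0.89 to 1.14 on the log2 scale. All 8 naive markers were called lower and all 7 formative markers higher in EpiLCs than in ESCs, in Neg and in 3xKD cells, while markers of other cell types were low. The summed primitive endoderm markers were 21.3 to 24.0 CPM in Neg and 28.1 to 31.0 CPM in 3xKD ESCs, and 22.7 to 27.6 CPM and 18.1 to 19.5 CPM in EpiLCs. The summed trophoblast markers were 9.09 to 11.0 CPM in Neg and 10.9 to 13.9 CPM in 3xKD ESCs, and 5.97 to 6.57 CPM and 13.96 to 16.67 CPM in EpiLCs. The states of both lines were not equal. In ESCs, 4 of the 8 naive markers were called lower in 3xKD than in Neg libraries, with sums of 2923 to 2976 CPM against 4157 to 4278 CPM. Of the 7 formative markers, 2 were called lower in 3xKD ESCs and 6 in 3xKD EpiLCs. In EpiLCs, 3 naive markers were called higher and 1 lower, with sums of 398.5 to 415.3 CPM in 3xKD against 308.4 to 320.9 CPM in Neg libraries. The part of this in the histone values was not tested. Replication-dependent genes made up 1.18% to 1.67% of all counts in a library and variants 0.19% to 0.21%. The submitters label the RNA as polyA RNA but describe rRNA depletion, which keeps mRNAs without a tail.

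The first comparison asked how histone RNA stands when the pyruvate-malate cycle enzymes are repressed. In ESCs, replication-dependent histone RNA was higher in 3xKD than in Neg cells, with the largest ratio for H2B. Levels are CPM, counts scaled to library size with TMM factors, which assume that most genes do not differ, and a gene was called where edgeR's adjusted p was under 0.01 and the log2 fold change was beyond 0.58. The summed level of the 67 genes was 13578, 11783 and 13293 CPM in the Neg libraries and 16825, 16594 and 15720 CPM in the 3xKD libraries, with no overlap and a log2 ratio of 0.35. In summed TPM, which is per length, the groups overlapped, at 27137, 32600 and 28019 against 30831, 37389 and 34671 TPM, with a log2 ratio of 0.23. In these bulk samples, more cells in S phase and more histone RNA per cell cannot be told apart. By class, the log2 ratio of the group means was 0.62 for H2B, 0.38 for H2A, 0.31 for H1, 0.26 for H3 and 0.19 for H4. In summed TPM it was 0.47, 0.23, 0.13, 0.10 and 0.15 in the same order. H2B sums stood apart furthest, at 2471, 2173 and 2434 CPM in Neg against 3629, 3668 and 3615 CPM in 3xKD. The lowest H4 sum of 3xKD lay just above the highest of Neg, at 3262, 2637 and 3247 CPM in Neg against 3674, 3476 and 3297 CPM in 3xKD. The H2B genes accordingly took 18.2% to 18.4% of replication-dependent CPM in Neg ESCs and 21.6% to 23.0% in 3xKD ESCs. The differences between classes were not tested.

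**Figure D1:**
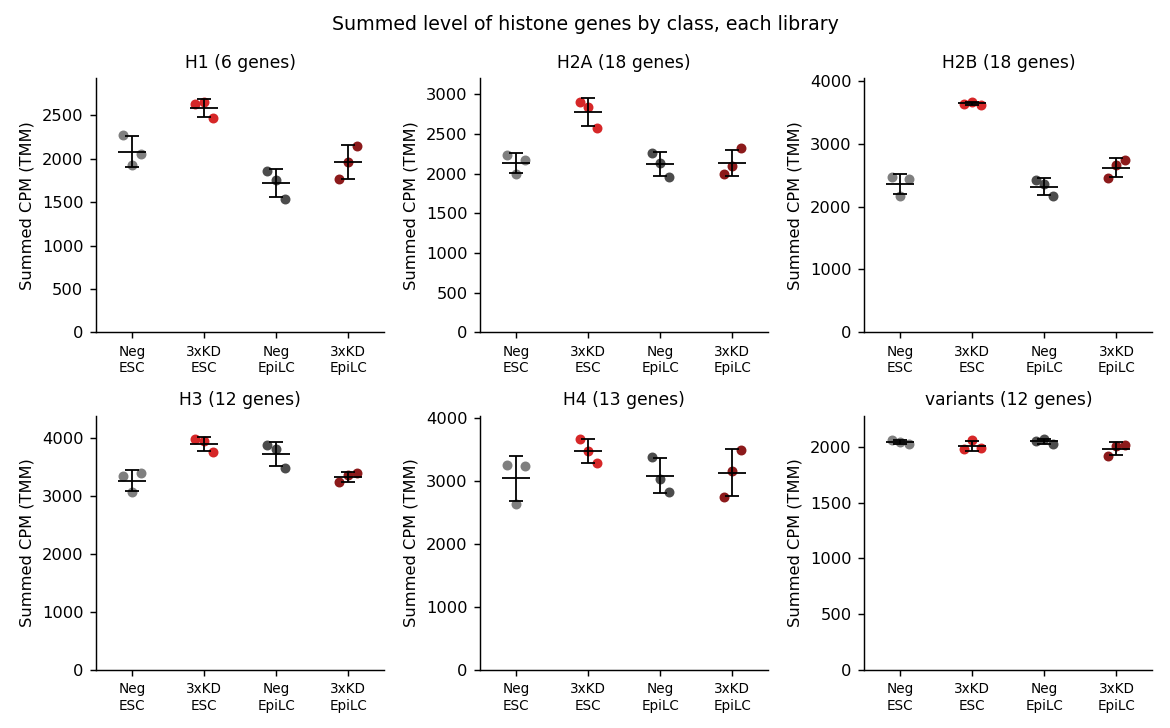
Summed TMM-scaled CPM of the replication-dependent genes of each class and of the 12 variants; each point is 1 library, bars give the mean and SD of 3 libraries, and all axes start at 0. The 3 H2B sums of 3xKD ESCs (3615 to 3668 CPM) lie above those of every other group, while the variant sums stay between 1919 and 2072 CPM.

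Of the 66 replication-dependent genes tested, 8 were called higher in 3xKD ESCs (12.1%, against 8.50% of all 25446 genes tested) and 0 were called lower (against 6.76% of all genes). With edgeR 5 were lower at an unadjusted p under 0.05, and DESeq2 called 8 higher and 0 lower. Without Neg ESC replicate 1, edgeR called 16 members, and without 3xKD ESC replicate 3 it called 13. The median log2 fold change of the 66 was 0.31, beside 0.03 over all genes, and 51 of 66 values were above 0. H2B genes made up 7 of the 8 calls: 7 of 18 were called, with a class median of 0.51. The median was 0.31 for H1, 0.31 for H2A, 0.25 for H3 and 0.23 for H4, and edgeR called no gene of the last 3 classes. At an unadjusted p under 0.05, 10 H2A, 8 H3 and 6 H4 genes were higher, and DESeq2 called 0 of them.

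H2bc8, an H2B gene of the large chromosome 13 cluster, had 419, 356 and 386 CPM in Neg ESCs and 726, 743 and 700 CPM in 3xKD ESCs. Every 3xKD value lay above every Neg value, with a log2 fold change of 0.90 ± 0.06 (SE, n = 3 against 3, edgeR adjusted p = 4.8e-09). H2bc3, whose protein no other member encodes, had 307, 273 and 328 CPM in Neg and 548, 568 and 555 CPM in 3xKD ESCs. It too had separate groups, with a log2 fold change of 0.88 ± 0.06 (edgeR adjusted p = 8.9e-09). H2bc3 overlaps Gm54517 on the same strand and H3c3, among others, on the other strand, and their part in its values was not tested. H2bc12 rose from 266, 237 and 246 CPM to 438, 427 and 418 CPM (0.78 ± 0.05, edgeR adjusted p = 7.8e-09). The less abundant H2bc14 rose from 47.2, 42.5 and 43.6 CPM to 79.0, 80.4 and 72.5 CPM (0.80 ± 0.09, edgeR adjusted p = 9.9e-07). These 4 of the 7 called H2B genes held the octamer in the promoter window, and H2bc27, H2bc4 and H2bc6 did not. Among the 11 H2B genes that were tested and not called, 3 held it (H2bc1, H2bc21 and H2bc18).

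H2bc27, from the small cluster on chromosome 11, rose from 19.8, 22.6 and 23.7 CPM to 39.4, 40.4 and 38.4 CPM, and no value of one group reached the other (0.83 ± 0.06, edgeR adjusted p = 2.1e-08). H2bc4 had 41.0, 27.3 and 31.7 CPM in Neg and 52.5, 52.1 and 48.3 CPM in 3xKD ESCs (0.62 ± 0.11, edgeR adjusted p = 0.00027). H2bc6 had 210, 163 and 188 CPM in Neg and 301, 269 and 276 CPM in 3xKD ESCs (0.59 ± 0.09, edgeR adjusted p = 6.3e-05). Both lie close to the fold limit and dropped to 0.50 without Neg ESC replicate 2, which had the lowest histone sum of its group, so that neither was called. H2bc6 also overlaps H1f4 on its own strand. H2bc11, H2bc13 and H2bc18, other H2B genes, had log2 fold changes of 0.42, 0.53 and 0.36, all with an adjusted p under 0.01 but under the fold limit. H2bc9 went the other way, with 36.5, 30.8 and 38.4 CPM in Neg and 24.3, 23.5 and 24.0 CPM in 3xKD ESCs. Its log2 fold change of -0.56 ± 0.08 (edgeR adjusted p = 3.1e-05) was also under the fold limit, and it was -0.47 ± 0.08 in EpiLCs. The coding sequence of H2bc9 is 6 bases from that of H2bc8, and a shift of divided reads was not tested. H2bc1, the testis-type H2B, had 33.3, 38.5 and 43.5 CPM in Neg and 31.1, 33.1 and 33.9 CPM in 3xKD ESCs, with overlapping groups.

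**Figure D2:**
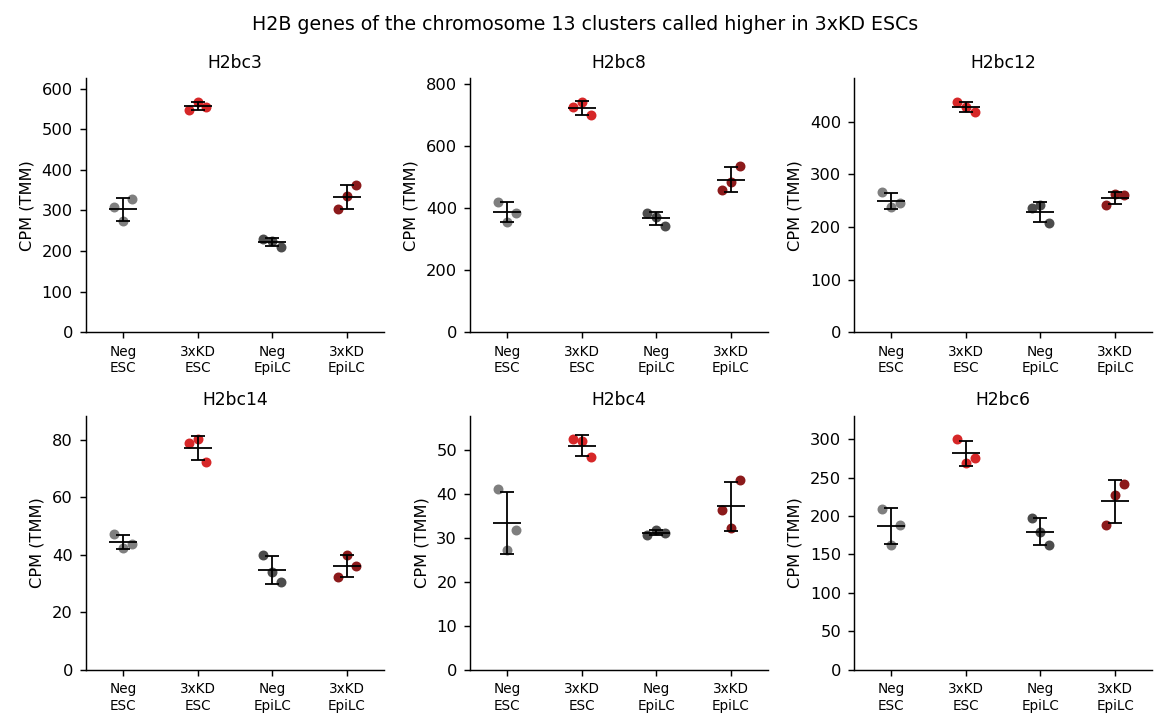
TMM-scaled CPM of 6 H2B genes of chromosome 13 in each of the 12 libraries; points are libraries and bars the mean and SD of 3, with axes from 0. In ESCs each gene has its 3 3xKD points above its 3 Neg points, while in EpiLCs the points of H2bc6, H2bc12 and H2bc14 overlap.

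The replication-dependent linker histones were also higher as a sum, but not every gene was. H1f6, the testis H1, was the only H1 gene called: it had 10.7, 7.64 and 8.57 CPM in Neg ESCs and 18.9, 15.7 and 16.5 CPM in 3xKD ESCs, with a log2 fold change of 0.94 ± 0.11 (edgeR adjusted p = 2.8e-06). H1f2, a main somatic H1, had 646, 600 and 530 CPM in Neg and 854, 925 and 849 CPM in 3xKD ESCs. Its groups were apart, but its log2 fold change of 0.57 ± 0.06 was just under the limit. H1f4 had a log2 fold change of 0.36 ± 0.06 and H1f1 one of 0.11 ± 0.12, with overlapping groups for H1f1 alone of these 3. H1f3, at 0.25 ± 0.11, did not pass the test, and neither did H1f5, at 0.03 ± 0.08 with overlapping groups.

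No H2A, H3 or H4 gene was called. H2ac18, a highly counted H2A gene, had 385, 327 and 364 CPM in Neg and 554, 525 and 481 CPM in 3xKD ESCs, a log2 fold change of 0.54 ± 0.09. H2ac7 had a log2 fold change of 0.47 ± 0.11 and H2ac13 one of 0.21 ± 0.12. H3c2 had 939, 720 and 816 CPM in Neg and 1100, 1045 and 951 CPM in 3xKD ESCs, a log2 fold change of 0.32 ± 0.09. H3c6 had a log2 fold change of 0.30 ± 0.03 and H3c3 one of 0.26 ± 0.05, with groups that did not overlap. By product, the 8 genes that encode H3.2 summed to 2767, 2446 and 2690 CPM in Neg and 3370, 3318 and 3120 CPM in 3xKD ESCs. The 4 genes that encode H3.1 (H3c1, H3c8, H3c10 and H3c11) summed to 575, 609 and 693 CPM in Neg and 610, 631 and 638 CPM in 3xKD ESCs, and these groups overlapped. The difference between both sets was not tested. H4c8 had 583, 484 and 615 CPM in Neg and 692, 639 and 642 CPM in 3xKD ESCs, a log2 fold change of 0.23 ± 0.07 that did not pass the test. H4c4 and H4c17 had log2 fold changes of 0.31 and 0.30.

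Divergent neighbors were compared by their values, with no test of the difference within a pair. The H2B gene had the higher log2 fold change in 6 of the 10 pairs with both genes tested, and the H2A gene in the others. As no H2A gene was called, calls within pairs could come from H2B genes alone. In 2 of the 10 pairs with both genes tested, the H2B gene was called higher in 3xKD ESCs and the H2A gene was not: H2bc8 beside H2ac8 (0.90 and 0.49 on the log2 scale) and H2bc12 beside H2ac12 (0.78 and 0.57). H2ac12 had scattered 3xKD values of 356, 251 and 196 CPM that overlapped Neg values of 209, 123 and 211 CPM.

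In EpiLCs, the replication-dependent sums of 3xKD and Neg libraries overlapped in CPM. The summed level was 13793, 13086 and 11979 CPM in Neg EpiLCs and 12195, 13232 and 14102 CPM in 3xKD EpiLCs, with a log2 ratio of 0.03. Summed TPM did not overlap, at 34229 to 37697 TPM in Neg and 29425 to 34070 TPM in 3xKD EpiLCs, a log2 ratio of -0.17. It put the H1, H2A, H2B and H4 sums below Neg as well (-0.07 to -0.23) where their CPM were above. Of 66 genes, 2 were called higher (3.03%, against 7.88% of all genes) and 2 lower (3.03%, against 5.35% of all genes), with a median log2 fold change of 0.05 beside 0.03 over all genes. The H2B genes took 17.6% to 18.1% of replication-dependent CPM in Neg EpiLCs and 19.4% to 20.1% in 3xKD EpiLCs, and the H3 genes 28.0% to 29.1% and 24.0% to 26.5%, without overlap. H3 sums were 3868, 3801 and 3485 CPM in Neg and 3228, 3361 and 3388 CPM in 3xKD EpiLCs, a log2 ratio of -0.16. H2bc3 remained higher, at 230, 225 and 211 CPM in Neg and 304, 335 and 363 CPM in 3xKD EpiLCs (0.59 ± 0.06, edgeR adjusted p = 1.1e-06). Its change fell below the fold limit without Neg EpiLC replicate 3 (0.56) and without 3xKD EpiLC replicate 3 (0.53), at adjusted p under 0.01 each time. H2bc8 had 385, 372 and 344 CPM in Neg and 458, 484 and 534 CPM in 3xKD EpiLCs, apart but below the limit at 0.42 ± 0.06. H1f2 was similar, at 425, 436 and 393 CPM in Neg and 554, 583 and 600 CPM in 3xKD EpiLCs (0.47 ± 0.06).

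The calls lower in 3xKD EpiLCs were a low H2A gene and an H4 gene. H2ac22 had 5.61, 5.91 and 5.69 CPM in Neg and 2.54, 3.07 and 2.31 CPM in 3xKD EpiLCs (-1.12 ± 0.21, edgeR adjusted p = 0.00044). H4c14, from the chromosome 3 cluster, had 206, 180 and 159 CPM in Neg and 95.6, 126 and 125 CPM in 3xKD EpiLCs (-0.66 ± 0.12, edgeR adjusted p = 0.00039). H4c14 stayed under the fold limit without Neg EpiLC replicate 1 (-0.55) and without 3xKD EpiLC replicate 1 (-0.54). The other call, H2ac19, rested on 621.8 and 1560 estimated counts in 3xKD EpiLC replicates 1 and 3, with 0 in the third library of that group. Its coding sequence is identical to that of H2ac18, and the sum of both genes was 367, 326 and 318 CPM in Neg and 327, 357 and 496 CPM in 3xKD EpiLCs, with overlapping groups. The call on H2ac19 was lost with DESeq2 and with 4 single libraries left out.

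**Figure D3:**
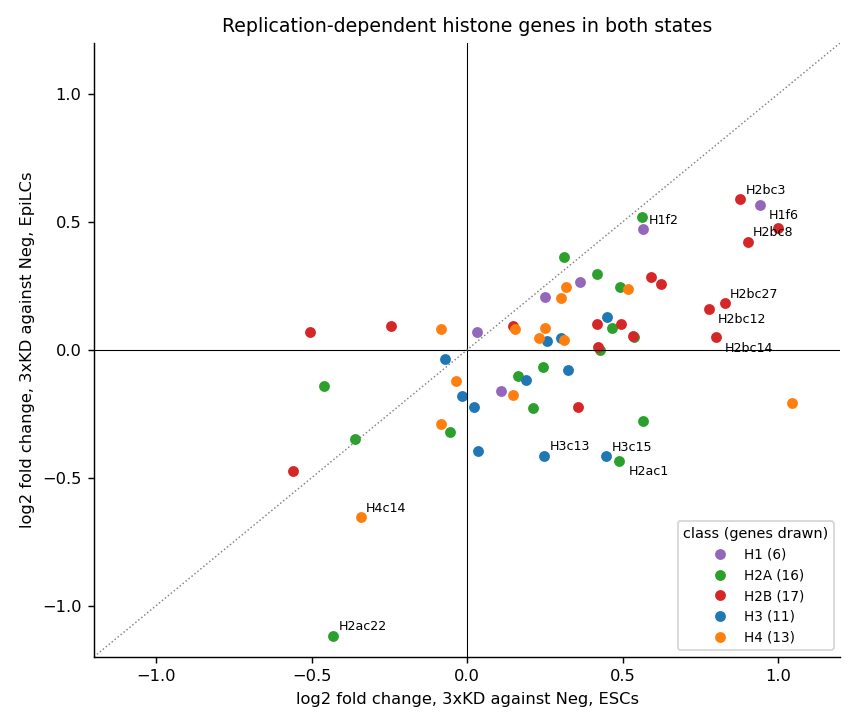
Log2 fold change of 3xKD against Neg in ESCs (x axis) and in EpiLCs (y axis) for replication-dependent histone genes, colored by class; the dotted line marks equal changes, and 3 genes with few or divided reads lie outside the range drawn. Most points lie right of 0 and below the dotted line, with H2bc3, H2bc8 and H1f6 high on both axes and H2ac1, H3c13 and H3c15 above 0 in ESCs and below 0 in EpiLCs.

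The difference between the states was tested directly with an interaction term, called at an adjusted p under 0.01 with no fold limit. Of 66 replication-dependent genes, 15 had a lower 3xKD effect in EpiLCs than in ESCs (22.7%, against 5.27% of all genes) and 0 a higher one (against 4.76%), with a median difference of -0.28 beside -0.001 over all genes. At an unadjusted p under 0.05, 2 were higher by edgeR, and DESeq2 called 17 lower and 0 higher. The 15 were 7 H2B genes, 5 H3 genes and 3 H2A genes, and no H1 or H4 gene was among them. Counts without one library ran from 15 to 21 members, the variant Macroh2a1 included. With transcript-length offsets 8 members were called, and without a filter on low genes 41.

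Among the H2B genes, the effect fell from 0.80 to 0.05 for H2bc14 (difference -0.75 ± 0.12, edgeR adjusted p = 0.00043) and from 0.78 to 0.16 for H2bc12 (-0.62 ± 0.08, edgeR adjusted p = 3.2e-05). In EpiLCs H2bc12 had 237, 243 and 207 CPM in Neg and 242, 264 and 260 CPM in 3xKD libraries, which overlapped. H2bc3, higher in both states, had a difference of -0.29 ± 0.09 that did not pass (edgeR adjusted p = 0.035). H2ac1, the testis-type H2A, turned from 0.49 in ESCs to -0.43 in EpiLCs (-0.92 ± 0.13, edgeR adjusted p = 7.8e-05). The chromosome 3 genes H3c13 and H3c15 turned from 0.25 and 0.45 to -0.41 and -0.42, with differences of -0.66 ± 0.08 and -0.86 ± 0.12 (edgeR adjusted p = 1.4e-05 and 9.2e-05). H3c14 and H3c15 have identical coding sequences and H3c13 differs from them at 1 base, so the sum of the 3 is firmer: 660, 583 and 634 CPM in Neg ESCs, 823, 816 and 752 CPM in 3xKD ESCs, 1230, 1171 and 1090 CPM in Neg EpiLCs and 873, 865 and 887 CPM in 3xKD EpiLCs. The 3xKD sums thus lay above the Neg sums in ESCs and below them in EpiLCs, without overlap in either state.

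From ESCs to EpiLCs, the summed replication-dependent CPM of Neg cells differed by less than the spread between libraries, with a log2 ratio of 0.01 (-0.03 with library size alone). The summed TPM did not overlap, at 27137 to 32600 TPM in ESCs and 34229 to 37697 TPM in EpiLCs, a log2 ratio of 0.28. In CPM, H1 sums were lower, at 2269, 1922 and 2054 CPM in ESCs against 1861, 1755 and 1538 CPM in EpiLCs, and H3 sums were higher, at 3342, 3056 and 3383 CPM against 3868, 3801 and 3485 CPM. In summed TPM the log2 ratio for H1 was -0.01 in place of -0.28 and that for H3 was 0.43 in place of 0.19. Of 66 genes, 7 were called higher in EpiLCs (10.6%, against 9.78% of all genes) and 0 lower (against 11.0% of all genes). At an unadjusted p under 0.05, edgeR had 12 lower, and DESeq2 called 7 higher and 0 lower. The median log2 fold change was -0.07 beside 0.01 over all genes.

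Testis-type histones were among the 7. H1f6 rose from 10.7, 7.64 and 8.57 CPM in Neg ESCs to 37.3, 40.8 and 34.3 CPM in Neg EpiLCs (2.08 ± 0.10, edgeR adjusted p = 4.4e-11). H2ac1 rose from 16.4, 13.6 and 16.9 CPM to 63.1, 57.5 and 52.8 CPM (1.88 ± 0.09, edgeR adjusted p = 2.8e-11). Its divergent partner H2bc1, whose start lies 305 bases away, rose from 33.3, 38.5 and 43.5 CPM to 78.8, 85.2 and 72.1 CPM (1.02 ± 0.10, edgeR adjusted p = 1.6e-07). For all 3 genes the ESC and EpiLC values were far apart, and H1f6 is one of the few members whose reads were not divided between genes. The annotated gene Gm11339 overlaps H2ac1 on the same strand and H2bc1 on the other strand, and its part in their values was not tested.

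Both replication-dependent members on chromosome 11 rose as well. H2bc27 went from 19.8, 22.6 and 23.7 CPM to 78.3, 75.8 and 70.8 CPM (1.76 ± 0.06, edgeR adjusted p = 4.1e-13). H2ac25 went from 121, 117 and 121 CPM to 193, 193 and 172 CPM (0.64 ± 0.05, edgeR adjusted p = 5.5e-09), though it overlaps Trim17 on the same strand. The last 2 were H3c13, at 0.83 ± 0.05, and H3c15, at 0.96 ± 0.09 (edgeR adjusted p = 1.5e-09 and 7.9e-08). H2bc27 thus was higher in EpiLCs than in ESCs and, within ESCs, higher in 3xKD cells. Both differences, like those of H1f6, are taken against the same Neg ESC libraries. Among abundant genes, H1f2 had 646, 600 and 530 CPM in Neg ESCs and 425, 436 and 393 CPM in Neg EpiLCs, a log2 fold change of -0.50 ± 0.06 under the limit.

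**Figure D4:**
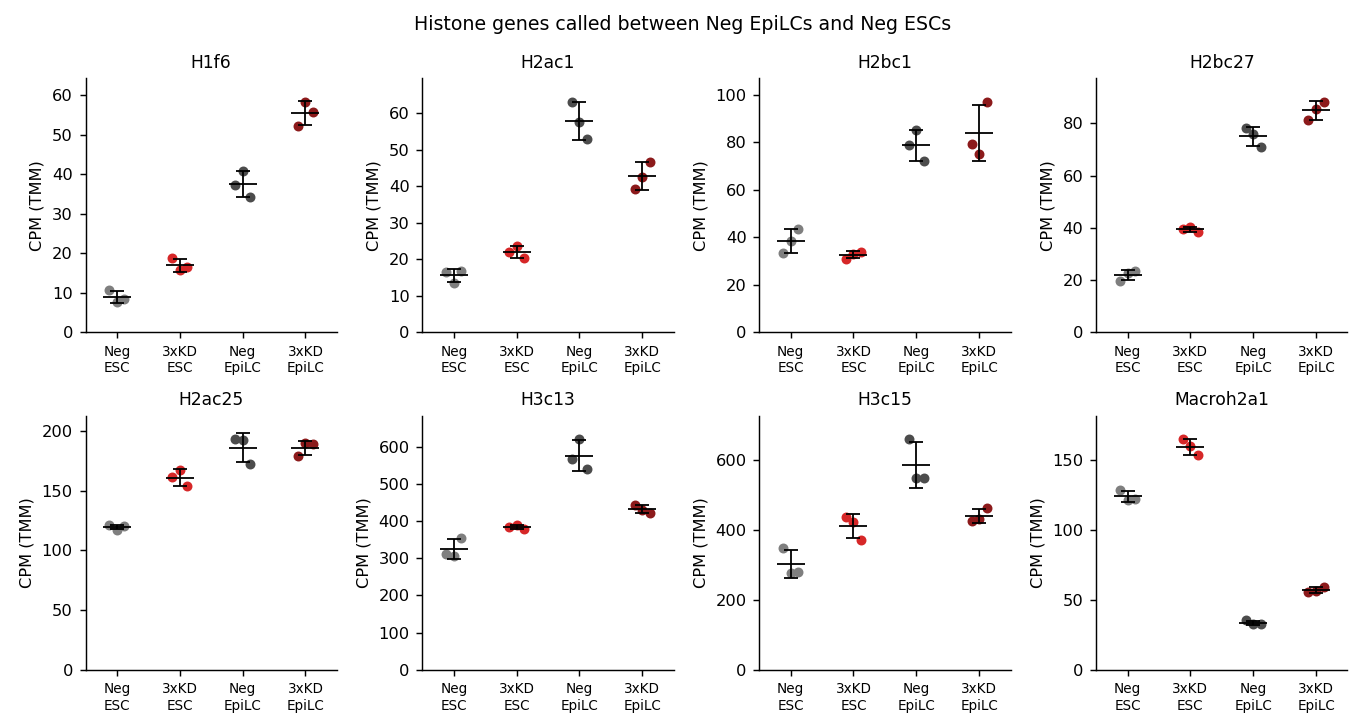
TMM-scaled CPM of the 8 members called between Neg EpiLCs and Neg ESCs in each of the 12 libraries; points are libraries and bars the mean and SD of 3, with axes from 0. The first 7 genes are higher in EpiLCs, H3c13 and H3c15 reach their top in Neg EpiLCs, and Macroh2a1 falls from 122 to 129 CPM in Neg ESCs to 32.5 to 35.5 CPM in Neg EpiLCs.

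In 3xKD cells, which share no libraries with the Neg comparison, the sum was lower in EpiLCs than in ESCs, with a log2 ratio of -0.31 in CPM and -0.12 in TPM. The groups did not overlap in CPM. They did in TPM, at 30831 to 37389 TPM in 3xKD ESCs and 29425 to 34070 TPM in 3xKD EpiLCs. There 6 of 66 genes were called higher (9.09%, against 9.42% of all genes) and 6 lower (9.09%, against 9.32% of all genes), with a median of -0.24 beside 0.01 over all genes. H1f6 rose by 1.70 ± 0.09, H2bc1 by 1.36 ± 0.10, H2bc27 by 1.11 ± 0.06 and H2ac1 by 0.96 ± 0.09 on the log2 scale. H2ac21, a low H2A gene, had 3.07, 2.62 and 2.35 CPM in 3xKD ESCs and 5.34, 4.22 and 6.37 CPM in 3xKD EpiLCs. That call (0.98 ± 0.23) was lost without 3xKD ESC replicate 3 and without 3xKD EpiLC replicate 3, and the sixth was H2ac19 with its divided reads. The lower calls were H2bc14 (-1.10 ± 0.09), H2ac12 (-0.87 ± 0.19), H2ac22 (-0.79 ± 0.22), H2bc12 (-0.74 ± 0.05), H2bc3 (-0.74 ± 0.06) and H1f2 (-0.60 ± 0.06). For H2bc14, H2bc12 and H2bc3, the 3xKD ESC libraries are the same as those in which they were called higher than Neg. H2ac12 was not called without 3xKD ESC replicate 1, H1f2 was not without 3xKD ESC replicate 2 or 3xKD EpiLC replicate 1, nor with DESeq2, other library factors, length offsets or no filter, where it was -0.52 to -0.58, and H2ac22 was not with any of 6 single libraries left out.

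The variants are given as a set and then by gene. Their summed level was between 1919 and 2072 CPM in every library, with log2 ratios of -0.02, -0.05, 0.01 and -0.02 in the 4 comparisons, but of -0.19, -0.30, 0.33 and 0.23 in summed TPM. Of the 10 tested, edgeR and DESeq2 called 0 in 3xKD ESCs (8.50% of all genes were called higher and 6.76% lower; at an unadjusted p under 0.05, edgeR had 6 higher and 2 lower), and 1, Macroh2a1, was called in each of the other comparisons, where 4.76% to 11.0% of all genes were called in a direction. H1f8, the oocyte H1, had 10 counts in total and was listed at 0 in 8 of the libraries.

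Macroh2a1 encodes macroH2A1, a large H2A variant found on silent chromatin such as the inactive X. It had 129, 122 and 122 CPM in Neg ESCs, 166, 160 and 154 CPM in 3xKD ESCs, 35.5, 33.0 and 32.5 CPM in Neg EpiLCs and 55.8, 56.2 and 59.4 CPM in 3xKD EpiLCs. No 2 groups overlapped. It fell from ESCs to EpiLCs by 1.88 on the log2 scale in Neg (SE 0.05, edgeR adjusted p = 4.2e-15) and by 1.49 in 3xKD cells (SE 0.04, edgeR adjusted p = 6.8e-14), the only variant called there. It was higher in 3xKD than in Neg cells by 0.36 ± 0.04 in ESCs, below the fold limit, and by 0.76 ± 0.05 in EpiLCs (edgeR adjusted p = 2.2e-09). The difference of these effects, 0.40 ± 0.06, passed the test (edgeR adjusted p = 0.00031) and was 0.22 with transcript-length offsets (adjusted p = 0.16). Its paralog Macroh2a2 had the opposite order of states: 31.3, 33.4 and 31.9 CPM in Neg ESCs against 40.2, 43.2 and 44.4 CPM in Neg EpiLCs (0.40 ± 0.06). It was 0.34 ± 0.06 higher in 3xKD ESCs and 0.32 ± 0.05 higher in 3xKD EpiLCs, with groups apart but under the limit.

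The H2A.Z genes differed from each other. H2az1, the main source of H2A.Z at promoters, had 387, 399 and 415 CPM in Neg ESCs and 318, 321 and 306 CPM in 3xKD ESCs, a log2 fold change of -0.35 ± 0.05. In EpiLCs it had 395, 357 and 362 CPM in Neg and 273, 303 and 291 CPM in 3xKD libraries, -0.36 ± 0.05. H2az2 was on the other side, at 0.31 ± 0.07 in ESCs and 0.26 ± 0.07 in EpiLCs. None of these 4 values reached the fold limit, and all had an adjusted p under 0.01.

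H2ax, which carries the stem-loop of the replication-dependent genes, was 0.32 ± 0.04 higher in 3xKD ESCs and 0.31 ± 0.04 higher in 3xKD EpiLCs, at 282, 275 and 275 CPM in Neg ESCs and 348, 357 and 332 CPM in 3xKD ESCs. H3f3a and H3f3b encode the same protein, H3.3, which is laid down outside replication. H3f3b had 639, 648 and 635 CPM in Neg ESCs and 519, 563 and 557 CPM in 3xKD ESCs (-0.23 ± 0.04), and was -0.20 ± 0.04 in EpiLCs. H3f3a had log2 fold changes of 0.07 ± 0.03 in ESCs and -0.07 ± 0.03 in EpiLCs for 3xKD against Neg, and was 0.43 ± 0.03 higher in Neg EpiLCs than in Neg ESCs. Of the linker variants, H1f0, an H1 linked with differentiated cells, was lower in Neg EpiLCs (124, 139 and 137 CPM) than in Neg ESCs (192, 190 and 164 CPM), and its 3xKD and Neg values overlapped in both states. H1f10 was 0.30 ± 0.07 higher in 3xKD ESCs and 0.46 ± 0.06 higher in 3xKD EpiLCs.

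**Figure D5:**
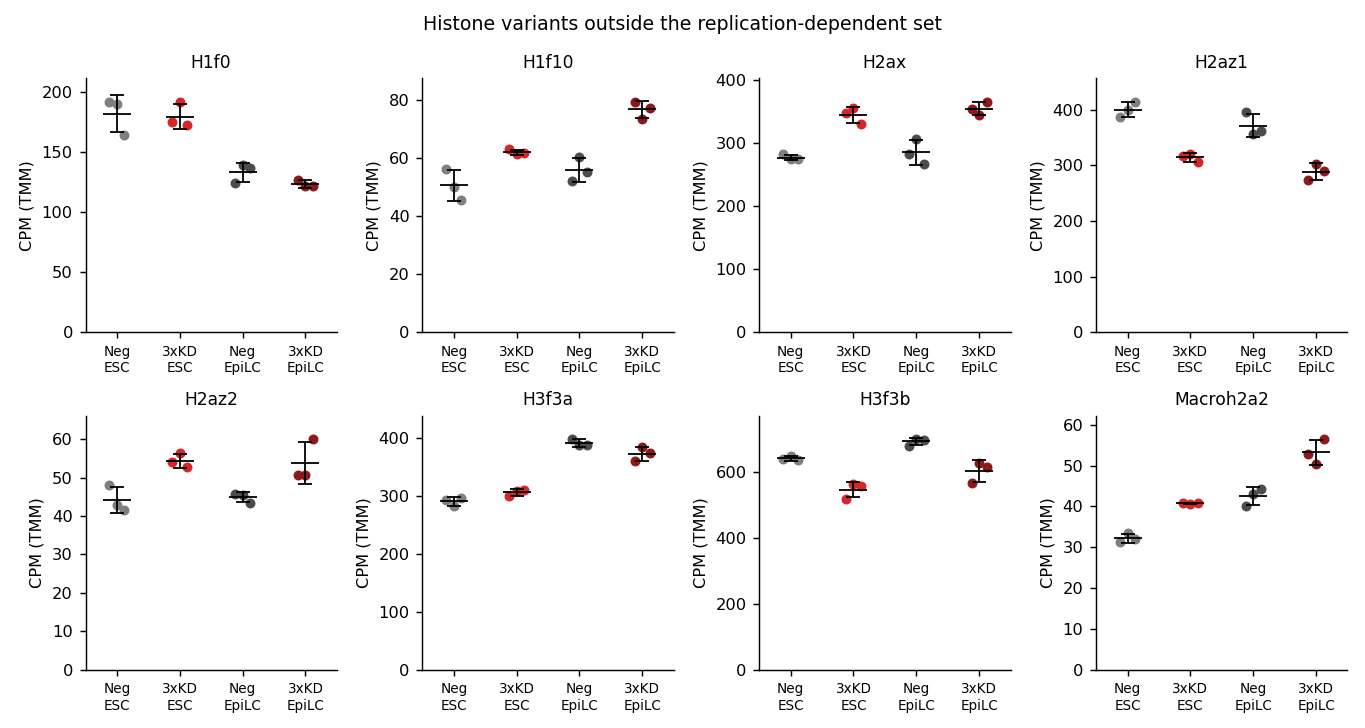
TMM-scaled CPM of the 8 variants other than Macroh2a1 and H1f8 that were tested, in each of the 12 libraries; points are libraries and bars the mean and SD of 3, with axes from 0. H2az1 and H3f3b are lower in 3xKD than in Neg libraries in both states, and H1f10, H2ax, H2az2 and Macroh2a2 are higher.

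Genes that make, process or handle histone mRNA and protein were taken as lists, to be read against the 8.50% of all genes called higher and 6.76% lower in 3xKD ESCs, and 7.88% and 5.35% in 3xKD EpiLCs. Of 32 tested genes for transcription and 3' processing of histone mRNA, 0 were higher and 2 lower in 3xKD ESCs (median -0.19), and 0 higher and 6 lower in 3xKD EpiLCs (median -0.22). At an unadjusted p under 0.05, edgeR had 7 and 5 higher, and DESeq2 called 0 higher in either state. Slbp had log2 fold changes of -0.09 ± 0.06 and -0.22 ± 0.06 in ESCs and EpiLCs, and Npat, the coactivator of histone loci, -0.30 ± 0.04 and -0.23 ± 0.04. The called genes included Eri1, an exonuclease that trims the histone stem-loop (-0.61 and -0.65), and Yy1, a transcription factor (-0.67 and -0.62). Pou2f1, which encodes the octamer-binding factor Oct-1, was called lower in EpiLCs (-0.69 ± 0.04, against -0.34 ± 0.04 in ESCs), as was Srrt (-0.76 ± 0.04). The difference between the states for Pou2f1 was -0.34 ± 0.06, but 0.13 with transcript-length offsets. Of 43 chaperones and importers, 0 were called in 3xKD ESCs by edgeR or DESeq2 (median -0.07). At an unadjusted p under 0.05, edgeR had 12 higher and 19 lower there. In 3xKD EpiLCs the median was -0.16, with 3 higher and 30 lower at that unadjusted p, and 1 was called higher and 2 lower. These were Chaf1b, a subunit of the assembly factor CAF-1 (0.65 ± 0.04), Daxx, an H3.3 chaperone (-0.63 ± 0.04), and Ubn2 of the HIRA complex (-0.75 ± 0.04). Nasp, a chaperone of H3 and H4, had -0.02 ± 0.05 and -0.06 ± 0.05.

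DNA replication genes, which are also used in S phase, were read beside the histone genes. Of 58 DNA replication genes, 4 were called higher and 0 lower in 3xKD ESCs by edgeR and by DESeq2 (8.50% and 6.76% of all genes), with a median log2 fold change of 0.06 (at an unadjusted p under 0.05, 26 were higher and 18 lower). The 4 were Uhrf1 (0.62), Pold2 (0.68), Mcm4 (0.60) and Tk1 (0.69). In EpiLCs 1 was called higher, Tk1 (1.03), with a median of -0.04. In the interaction 2 were higher and 9 lower (4.76% and 5.27% of all genes), with a median of -0.11. The part of S-phase cells in the histone values was not tested. Of the other histone genes outside the symbol rule, 5 of 18 were tested: H2aj was higher in 3xKD in ESCs and EpiLCs (0.99 ± 0.06 and 0.64 ± 0.06), H3f4 (-1.49 ± 0.07 and -1.44 ± 0.07) and H2bw2 (-1.76 ± 0.20 and -1.30 ± 0.21) were lower, and Cenpa, the centromere H3, had 0.18 ± 0.03 and 0.39 ± 0.03.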

How the data were processed

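RNA of 12 libraries, 3 in each of 4 groups taken from the sample titles, was sequenced single-end after rRNA depletion. Per the submitters' processing notes and the study's methods, the authors used Trim Galore 0.6.7, STAR 2.7.9a (GRCm39) and Salmon 1.10.1, and deposited estimated counts and TPM per transcript. Estimated counts were summed per gene over transcripts, rounded and tested with edgeR 4.0.16 (R 4.3.3): TMM factors, at least 10 counts in total, quasi-likelihood fit of all 4 groups, Benjamini-Hochberg adjustment over all genes. Class sums are sums of CPM, and deposited TPM values were summed as an alternative. Coordinates, stem-loops and promoters come from GRCm39 with GENCODE vM39 (all 79 members matched by gene ID). DESeq2 1.42.0, other factors, filters, length offsets and leaving out each library were tried as alternatives. The fit was tested on simulated data. The study states biological triplicates as the minimum for its experiments in general, while the sample titles say only replicate. Separate cultures are not described for these libraries, so p-values measure the spread between these samples.

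Members and lists were chosen with earlier results of these data known. Named genes are all variants tested, the 3 replication-dependent members of each class with the highest mean CPM, the 5 largest calls in each direction per comparison, the 3 largest calls of each list in the 3xKD comparisons, and Slbp, Npat, Nasp, Cenpa, Pcx, Me1 and Me2. H2bc18, H2bc11, H2bc13, H2ac8 and the other genes named beyond these were chosen after their values were seen. The cell type field names ESCs for all Neg and EpiLCs for all 3xKD libraries, against the titles, and the markers followed the titles.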

Additional observations from a re-analysis of the deposited data

Results flagged for a closer look

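The effect of 3xKD differed between EpiLCs and ESCs, by the interaction test, for 16 members, given as the log2 effect in EpiLCs minus that in ESCs. For H2B genes it was -0.75 for H2bc14, -0.65 for H2bc27, -0.62 for H2bc12, -0.58 for H2bc18, -0.48 for H2bc8, -0.48 for H2bc13 and -0.41 for H2bc11. Among H3 genes it was -0.86 for H3c15, -0.66 for H3c13, -0.43 for H3c1, -0.32 for H3c4 and -0.26 for H3c6. The H2A genes were H2ac1 at -0.92, H2ac25 at -0.43 and H2ac15 at -0.31, a call lost with any of 4 single libraries left out (Neg ESC replicates 2 and 3, 3xKD ESC replicate 2 and 3xKD EpiLC replicate 2). The variant Macroh2a1 went the other way, at 0.40. With transcript-length offsets the calls on H2bc8, H2bc11, H2bc13, H2ac15, H3c1, H3c4, H3c6 and Macroh2a1 were lost. Robust estimation lost those on H2bc8 and H2bc18, and library size alone those on H2ac15 and H3c6.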

How the results depend on the processing

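Of 50 calls on histone genes in the 5 comparisons, 31 were kept under every alternative and with each library left out, 19 were lost under at least 1, and 0 changed direction. With an adjusted p under 0.05 and no fold limit, 47, 30, 26 and 51 members were called in 3xKD against Neg ESCs, 3xKD against Neg EpiLCs, Neg EpiLCs against ESCs and 3xKD EpiLCs against ESCs, in place of 8, 5, 8 and 13. The share of all genes called at that setting is not given here, so these counts are not read as a result about the members. Transcript-length offsets and robust estimation gave 3 in 3xKD against Neg EpiLCs. In the interaction, 16 members were called, 8 with transcript-length offsets and 41 without a filter on low counts. The causes were not tested. Summed TPM in place of summed CPM gave log2 ratios of 0.23, -0.17, 0.28 and -0.12 for the replication-dependent genes, in place of 0.35, 0.03, 0.01 and -0.31. Pou2f1, at -0.34 in the interaction, was at 0.13 with transcript-length offsets.

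Without one library each, calls ran from 7 to 16, 3 to 6, 8 to 9, 12 to 18 and 15 to 21 in the 5 comparisons. The 16 came without Neg ESC replicate 1 (13 without 3xKD ESC replicate 3), and the 3 without Neg EpiLC replicate 3 or 3xKD EpiLC replicate 3. Log2 ratios of the sums ran from 0.29 to 0.39, -0.03 to 0.08, -0.05 to 0.06 and -0.37 to -0.26. Same-numbered libraries did not deviate together (correlations from -0.14 to 0.10). That shows no strong pairing by number and cannot exclude weaker pairing. A replicate block gave 9, 5, 8, 14 and 16 calls. Divided reads between near-identical copies limit the values of single genes.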
